A study of Mus musculus with 6 samples.

Results

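Imprinted growth genes were followed in primary mouse adipocytes in which Rbm43, a gene for an RNA-binding protein, was knocked down. The set held 10 genes, Nnat, Dio3, Dlk1, Mest, Igf2, Peg3, Plagl1, H19, Grb10 and Cdkn1c, found by symbol among the 35976 rows of the deposited table of normalized counts. All 10 passed the minimum for testing, 10 normalized counts or more in 2 or more libraries, which 14211 genes met. Nnat and Dio3 entered the set because they were among the largest falls with Rbm43 siRNA, so their differences are given as a description with no test. The other 8 joined the set as imprinted genes with roles in growth or fat cells.

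Every culture carried Ppargc1a fl/fl, a floxed allele of the gene for the coactivator PGC-1alpha. The first group, called Cre/Rbm43 here, received adenovirus encoding Cre, the recombinase that excises floxed DNA, and Rbm43 siRNA. The second, GFP/Rbm43, received adenovirus encoding GFP and Rbm43 siRNA, and the control group, GFP/control, received the GFP adenovirus and control siRNA. The sources do not say what promoter drives Cre. Cells were fully differentiated before RNA was harvested, and each group had 2 libraries that the study calls biological duplicates. Neither the age of the animals nor whether the duplicates came from separate animals is given in the sources used here, so p-values measure the spread between these libraries, which may be technical. Cre virus with control siRNA was not analysed here. The comparisons were Rbm43 siRNA against control siRNA (with GFP virus), Cre virus against GFP virus (with Rbm43 siRNA) and, as the third, Cre/Rbm43 against GFP/control cells, and each pair of them shares a group of libraries.

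Imprinted genes are transcribed mainly or only from the maternal or the paternal copy, a choice held by DNA methylation set in the germ line. Many act on growth, with paternally expressed genes such as Igf2, Dlk1 and Mest often promoting it and maternally expressed genes such as H19, Grb10 and Cdkn1c often restraining it. In fat, Dlk1 holds back the differentiation of preadipocytes and Mest is known as a marker of fat cell expansion. Transcripts of either parental copy were counted together in these libraries, so the values are levels, not imprinting, and DNA methylation was not measured.

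The starts of the genes that the results turn on are shown with their CpGs, the substrate of DNA methylation. Whether these CpGs carry imprinting marks was not measured, and they were not tied to the values. Sequences are from RefSeq on GRCm38.p6, 5' to 3' on the gene's strand, with CG dinucleotides in capitals. Each is the longest stretch of the 250 bases before the RefSeq start that lies in no GENCODE M21 exon. Nnat and Dio3 are the genes chosen by their fall, Dio3os is the divergent neighbour of Dio3, Mest is the other member past the threshold with a large change, and Dlk1 lies at the far end of the domain that holds Dio3.
Nnat, chr2:157560008-157560077, + strand: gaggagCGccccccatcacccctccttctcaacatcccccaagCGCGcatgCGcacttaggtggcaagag
Dio3, chr12:110278980-110279067, + strand: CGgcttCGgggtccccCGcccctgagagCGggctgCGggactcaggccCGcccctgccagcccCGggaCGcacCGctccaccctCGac
Dio3os, chr12:110278173-110278318, - strand: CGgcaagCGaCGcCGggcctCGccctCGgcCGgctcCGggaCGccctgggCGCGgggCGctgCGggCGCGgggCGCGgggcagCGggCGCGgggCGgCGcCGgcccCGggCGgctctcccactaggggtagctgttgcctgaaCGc
Mest, chr6:30737800-30738049, + strand: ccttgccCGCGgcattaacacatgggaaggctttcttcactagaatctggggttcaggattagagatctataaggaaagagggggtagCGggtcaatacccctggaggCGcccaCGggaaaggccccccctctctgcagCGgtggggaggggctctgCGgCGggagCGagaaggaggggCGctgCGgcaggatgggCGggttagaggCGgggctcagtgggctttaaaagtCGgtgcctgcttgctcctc
Dlk1, chr12:109452573-109452822, + strand: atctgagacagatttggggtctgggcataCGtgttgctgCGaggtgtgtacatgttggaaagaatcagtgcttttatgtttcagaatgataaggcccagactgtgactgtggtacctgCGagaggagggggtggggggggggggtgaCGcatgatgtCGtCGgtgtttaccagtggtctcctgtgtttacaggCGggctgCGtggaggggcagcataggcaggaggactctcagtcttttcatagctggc
The full windows of 300 bases, 250 before the start and 50 after it, held 17 CpGs at Nnat, 25 at Dio3, 53 at Dio3os, 17 at this Mest start and 9 at Dlk1, against a median of 7 over 32851 RefSeq windows. The Dio3os window lay at percentile 99.5 of all windows by CpG count, Dio3 at 81.6, Nnat at 68.6 and Dlk1 at 54.2. A TATAAA match on either strand was found in the Dio3 window and in 13.616% of all windows, and GGGCGG matched 4 times at Dio3, 2 times at Dio3os, 1 time at this Mest start and 0 times at Nnat and Dlk1, against at least 1 match in 35.658% of all windows. CCAAT matched 2 times at Dio3 and 0 times at Nnat, Dio3os, Mest and Dlk1, with matches in 37.408% of all windows. These matches are letters in a window and were not tied to the binding of any factor.

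The members spanned a wide range of levels. Per kilobase of exon (GENCODE M21), the median normalized count over the 6 libraries was 915 for H19 and 657 for Grb10, the top pair. Dio3 followed at 92.8 per kilobase, then Cdkn1c at 50.1, Peg3 at 38.3, Mest at 28.8, Plagl1 at 26.8, Nnat at 21.2, Dlk1 at 5.95 and Igf2 at 3.92. Most of the 6 libraries had Rbm43 siRNA, where Nnat, chosen by its fall, was low. In GFP/control cells Nnat averaged 77.7 per kilobase, against 44.1 for Cdkn1c, 42.8 for Mest, 36.7 for Peg3 and 29.6 for Plagl1. H19 ranged from 799 to 969 per kilobase and Grb10 from 626 to 708, so the libraries of this pair did not overlap. The ranges of Mest (25.8 to 49.7), Plagl1 (25.9 to 36.4) and Nnat (17.8 to 87.6) overlapped, and so did those of Dlk1 (4.09 to 7.54) and Igf2 (2.30 to 5.53). That of Nnat also overlapped those of Peg3, Cdkn1c and Dio3. The growth restrainers H19 and Grb10 were thus far above the growth factor Igf2 on this scale in every library. Igf2 shares 62.83% of its exon bases with the same-strand gene model Gm49394, so its level here could be understated.

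**Figure D1:**
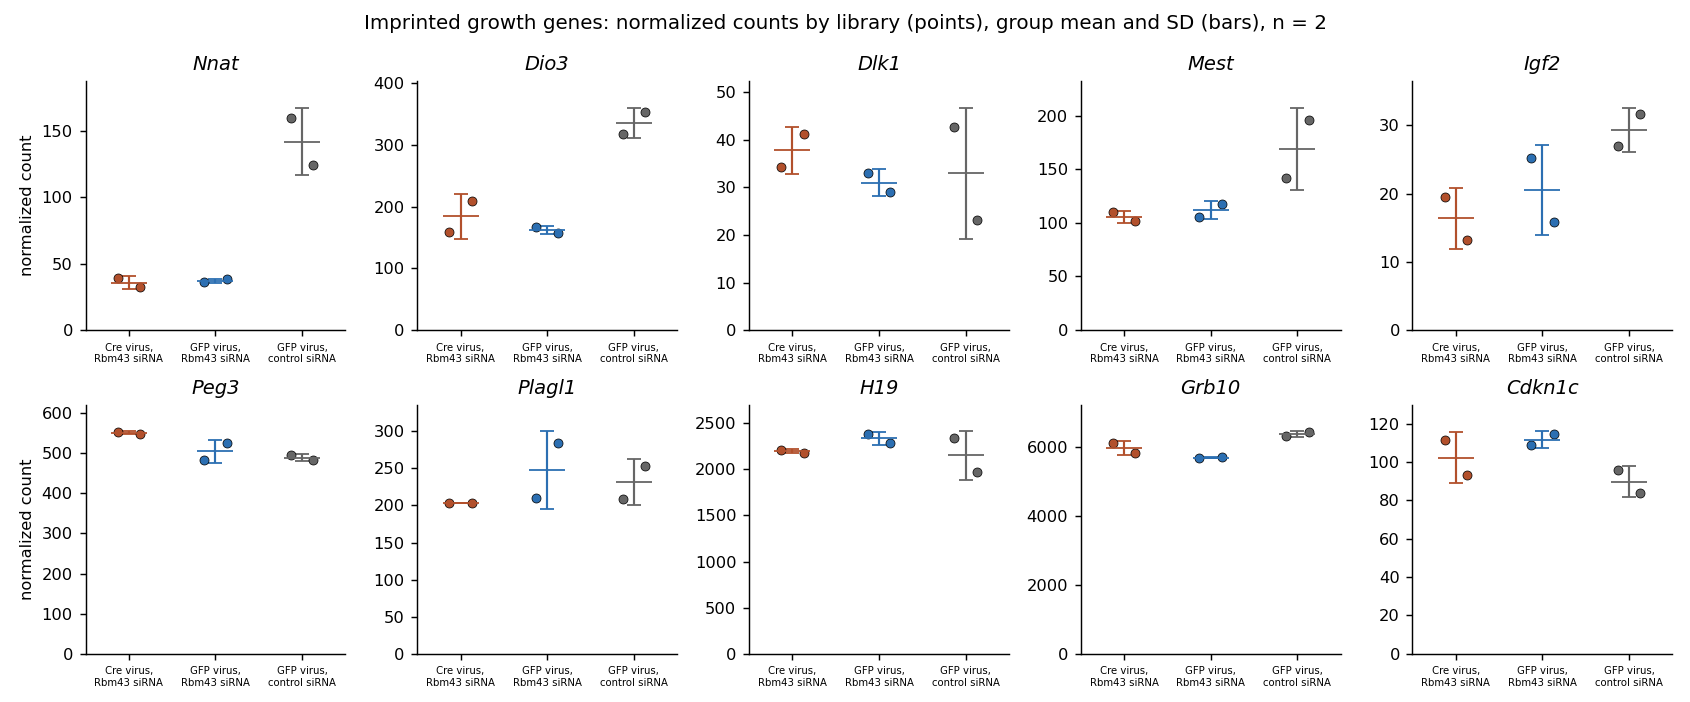
Normalized counts (y axis, each from 0) of the 10 imprinted growth genes in each library (points), with group means and SD (bars, n = 2), for Cre/Rbm43, GFP/Rbm43 and GFP/control from left to right. Nnat and Dio3, chosen by their fall, lie lower in all 4 Rbm43 siRNA libraries than in the 2 control siRNA libraries. So do Mest, Igf2 and Grb10, with far smaller gaps for Grb10, while Dlk1, Peg3, Plagl1, H19 and Cdkn1c do not. Igf2 did not pass the threshold in any comparison. The share of all genes ordered this way was not counted, so this order is no result about the set.

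Nnat encodes neuronatin, a small membrane protein of the endoplasmic reticulum best known from brain, where it is expressed from the paternal copy. Its normalized counts were 39.2 and 32.5 in Cre/Rbm43 cells, 35.9 and 38.2 in GFP/Rbm43 cells, and 160.2 and 124 in GFP/control cells. The 4 libraries with Rbm43 siRNA lay close together and well under both control siRNA libraries, and the 2 virus groups overlapped. With GFP virus the mean was 37.1 ± 1.64 with Rbm43 siRNA and 142 ± 25.5 with control siRNA (SD, n = 2 each), 26.1% of the control level and a log2 fold change of -1.90. Cre/Rbm43 averaged 35.8 ± 4.71, a log2 fold change of -0.05 against GFP/Rbm43 and -1.95 against GFP/control. In bulk RNA such as this, fewer cells of a type and less RNA per cell cannot be told apart. All log2 fold changes here are on log2(normalized count + 1), which understates changes of genes with low counts.

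In GENCODE M21 on mm10, the gene sits at chr2:157560078-157562522 on the plus strand, inside Blcap on the minus strand, with which it shares 0 exon bases. Blcap, itself imprinted in brain, had normalized counts of 1271 and 1260.2 in GFP/Rbm43 cells against 1213 and 1176 in GFP/control cells, a log2 fold change of 0.08 ± 0.06 (SE from limma, adjusted p = 0.343). The host gene of Nnat therefore did not pass the threshold. Of the 5 calcium pump genes and regulators listed because neuronatin is known to act on SERCA pumps, 2 passed the minimum, and Pln and Sln were at 0 in every library. Atp2a2, the pump SERCA2, had a log2 fold change of 0.00 ± 0.05 with Rbm43 siRNA against control siRNA (adjusted p = 0.969). Atp2a3, SERCA3, fell with Cre virus against GFP virus under Rbm43 siRNA, with 37.2 and 35.1 against 59.2 and 64.4 normalized counts (log2 fold change -0.76 ± 0.21, adjusted p = 0.0258). That call was lost in 4 of the 6 fits with a library left out (adjusted p up to 0.213).

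The genes whose profiles over the 6 libraries lay nearest to Nnat were found by the Euclidean distance between log2 profiles, each centred on its own mean, among 11622 tested genes whose mean normalized count was 50 or more. They were Retn (distance 0.464), Aldh1a3 (0.543), Rbm43 itself (0.639), Cbr2 (0.729) and Wfdc21 (0.741). Retn, the adipokine resistin, had 433 and 439 normalized counts in Cre/Rbm43 cells, 515 and 457 in GFP/Rbm43 cells, and 1513 and 1364.5 in GFP/control cells. Aldh1a3, an enzyme that makes retinoic acid, had 83.2 and 66.8, then 69.9 and 60.6, against 264 and 310.4 in the same order of groups. Rbm43, the siRNA target, had 53.8 and 32.5, then 43.7 and 46.6, against 185 and 224. Likeness over 6 libraries that mainly part control siRNA from Rbm43 siRNA is a description of that contrast.

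Dio3 encodes the type 3 deiodinase, which inactivates thyroid hormones, and is expressed mainly from the paternal copy. It lies at chr12:110279068-110281097 on the plus strand (GENCODE M21, mm10). Its normalized counts were 159 and 209.9 in Cre/Rbm43 cells, 167 and 158 in GFP/Rbm43 cells, and 318 and 353 in GFP/control cells. Every Rbm43 siRNA library lay under both control siRNA libraries, and the 2 virus groups with Rbm43 siRNA overlapped. With GFP virus the mean was 162 ± 6.63 with Rbm43 siRNA and 336 ± 24.5 with control siRNA (SD, n = 2 each), 48.4% of the control level and a log2 fold change of -1.04. Cre/Rbm43 averaged 184 ± 36.3, a log2 fold change of 0.17 against GFP/Rbm43 and -0.87 against GFP/control. The first of these turned to -0.03 without replicate 2 of Cre/Rbm43 and was 0.37 without replicate 1.

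Dio3os, a noncoding RNA read away from Dio3 on the opposite strand, was the third nearest profile to Dio3 (distance 0.326) after Cpxm2 (0.253) and Actg1 (0.311). In GENCODE M21 the starts of Dio3os and Dio3 face away from each other across 895 bases. Dio3os had 73.4 and 78.2 normalized counts in Cre/Rbm43 cells, 74.8 and 61.6 in GFP/Rbm43 cells, and 121 and 129 in GFP/control cells. Its log2 fold change was -0.87 with Rbm43 siRNA against control siRNA and 0.16 with Cre virus against GFP virus, close to those of Dio3, and it was noticed after its values were seen. Gid4 (0.350), the substrate receptor of a ubiquitin ligase, and Thbs4 (0.362), a secreted thrombospondin, completed the 5 nearest. Actg1 is a cytoplasmic actin with close paralogs that share reads, so its counts of 10155 and 9406 in GFP/Rbm43 cells against 19371 and 20780 in GFP/control cells are uncertain.

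The thyroid hormone pathway around Dio3 was listed as 19 genes, of which 18 passed the minimum. With Rbm43 siRNA against control siRNA under GFP virus, 6 rose and 2 fell, with a median log2 fold change of 0.083 over the list against -0.0056 over all genes tested. Over all genes, 23.2% were called in this comparison, 13.5% higher and 9.76% lower. Dio2, the deiodinase that makes the active hormone, stood opposite to Dio3. It had 46.0 and 42.2 normalized counts in Cre/Rbm43 cells, 62.1 and 55.0 in GFP/Rbm43 cells, and 19.8 and 12.2 in GFP/control cells. Its log2 fold change was 1.85 ± 0.26 with Rbm43 siRNA against control siRNA (adjusted p = 3.14e-05) and 1.45 ± 0.26 in Cre/Rbm43 against GFP/control cells (adjusted p = 0.000739). Dio1, the other activating deiodinase, was at 0 in all 6 libraries.

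Among the hormone's receptors, cofactors and carriers, Thrb, a nuclear receptor, rose with Rbm43 siRNA against control siRNA, with 468 and 489 against 340.2 and 363 normalized counts (log2 fold change 0.44 ± 0.08, adjusted p = 0.000661). It fell with Cre virus against GFP virus under Rbm43 siRNA, with 377 and 349 against 468 and 489 (log2 fold change -0.40 ± 0.08, adjusted p = 0.00462), a call lost without GFP/Rbm43 replicate 2 or Cre virus replicate 2 (adjusted p up to 0.135). Thrsp, a lipogenic gene named for its response to the hormone, rose with Rbm43 siRNA, with 3529 and 3542 against 971 and 849.6 normalized counts (log2 fold change 1.96 ± 0.06, adjusted p = 3.85e-13). Thrsp also fell with Cre virus, with 2285 and 2513 against 3529 and 3542 (log2 fold change -0.56 ± 0.06, adjusted p = 1.86e-05). Ncoa1, a coactivator of nuclear receptors, had a log2 fold change of 0.36 ± 0.06 with Rbm43 siRNA (adjusted p = 0.000225). The amino acid carrier Slc7a5 fell by 0.36 ± 0.07 on the log2 scale with Rbm43 siRNA (adjusted p = 0.000364). In the comparison of Cre with GFP virus 0 rose and 2 fell, with a list median of -0.031 against 0.0022 over all genes, where 8.5% were called, 2.62% higher and 5.88% lower. Cre/Rbm43 against GFP/control cells gave 2 higher, Thrsp and Dio2, and 0 lower, with a list median of 0.068 against -0.0018 over all genes, where 14.7% were called, 8.47% higher and 6.28% lower. With a library left out, the number higher in that comparison ranged from 2 to 5, and the number lower with Cre virus against GFP virus from 1 to 3.

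**Figure D2:**
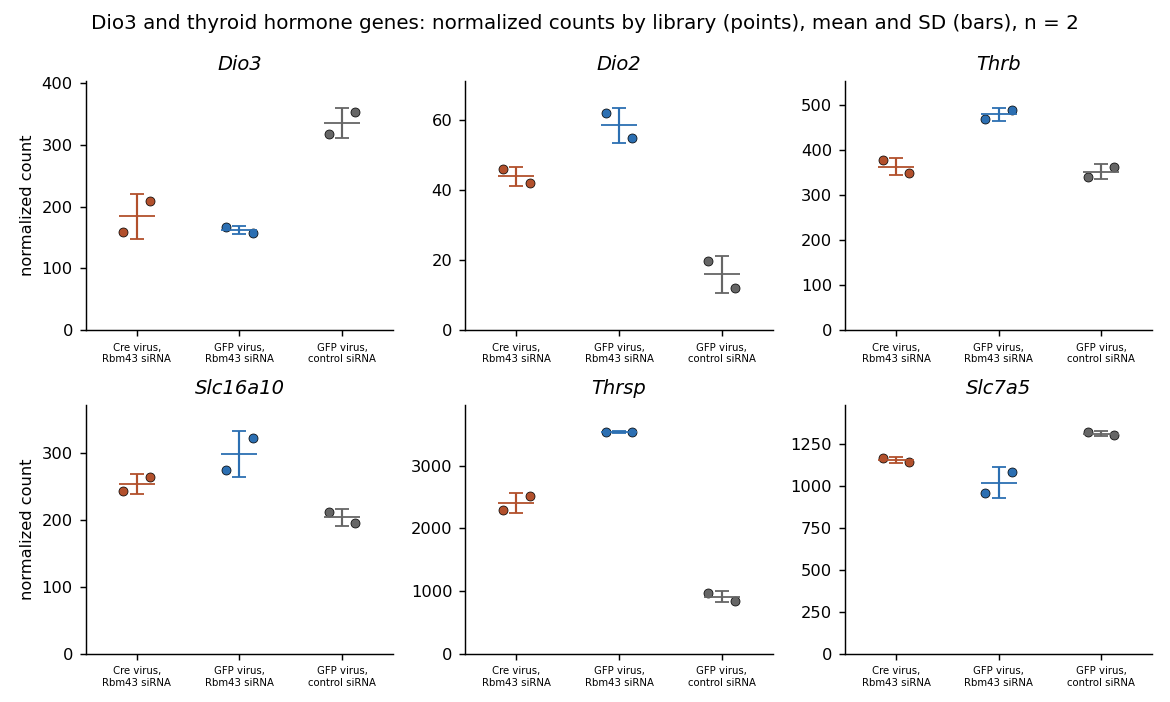
Normalized counts (y axis, each from 0) of Dio3 and 5 genes of the thyroid hormone pathway in each library (points), with group means and SD (bars, n = 2), for Cre/Rbm43, GFP/Rbm43 and GFP/control from left to right. Dio3 is lower and Dio2 higher in the 4 Rbm43 siRNA libraries than in the 2 control siRNA libraries, and Thrsp stands highest in GFP/Rbm43 cells.

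Dlk1, the membrane ligand that holds back fat cell differentiation, lies 815.7 kb from Dio3 at chr12:109452823-109463336 in the same imprinted domain. It had 34.3 and 41.3 normalized counts in Cre/Rbm43 cells, 33.0 and 28.9 in GFP/Rbm43 cells, and 42.7 and 23.1 in GFP/control cells. The control siRNA pair spanned all the values in GFP/Rbm43 cells. The log2 fold change with Rbm43 siRNA against control siRNA was -0.02 ± 0.28, with a 95% interval of -0.62 to 0.57 (adjusted p = 0.964), and its sign turned without control siRNA replicate 1 (0.40). Dlk1 rested on 19 to 47 reads per library and its control siRNA pair lay far apart, so changes inside that interval were not excluded.

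Between Dlk1 and Dio3, the maternally expressed noncoding RNAs Meg3 and Rian were abundant. Meg3 had 8491 and 7909 normalized counts in Cre/Rbm43 cells, 5882 and 6708 in GFP/Rbm43 cells, and 7696 and 7932 in GFP/control cells. Its log2 fold change was -0.31 ± 0.06 with Rbm43 siRNA against control siRNA (adjusted p = 0.000424) and 0.38 ± 0.06 with Cre virus against GFP virus (adjusted p = 0.000235). Rian had 4917 and 4998 in Cre/Rbm43 cells, 4250.3 and 4332 in GFP/Rbm43 cells, and 5084 and 5318 in GFP/control cells. Its log2 fold change was -0.28 ± 0.05 with Rbm43 siRNA (adjusted p = 0.000221) and, for Cre virus against GFP virus, 0.21 ± 0.05 (adjusted p = 0.00767), and the second call was lost when GFP/Rbm43 replicate 1 or either Cre virus library was left out (adjusted p up to 0.175). These 2 comparisons share the GFP/Rbm43 libraries, which were the lowest for both RNAs. Against GFP/control, Cre/Rbm43 gave 0.07 ± 0.06 for Meg3 (adjusted p = 0.486) and -0.07 ± 0.05 for Rian (adjusted p = 0.376).

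In the domain with 200 kb on either side, 9 of 80 genes in the table passed the minimum. Mirg, the third noncoding RNA of the cluster, had a log2 fold change of -0.12 with Rbm43 siRNA (adjusted p = 0.605), and Rtl1 was below the minimum. Beyond Dio3, the pseudogene Gm6988 had 65.1 and 69.0 normalized counts in GFP/Rbm43 cells against 44.7 and 38.9 in GFP/control cells, and Ppp2r5c had a log2 fold change of -0.03. Dio3 and Dio3os had the lowest log2 fold changes of the 9 in this comparison. Dio3 was chosen by its fall in this same comparison and Dio3os was noticed after its values were seen, so their rank was not tested. A list of neighbours of the members, which did not hold Dio3os, had 17 tested genes. Of these, 0 rose and 2 fell with Rbm43 siRNA (median log2 fold change -0.118), and 2 rose and 0 fell with Cre virus (0.056). In Cre/Rbm43 against GFP/control cells 0 passed the limma threshold (-0.011), with 0 at an unadjusted p under 0.05 and 0 by edgeR or DESeq2. Over all genes, limma called 23.2%, 8.5% and 14.7% in these comparisons.

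**Figure D3:**
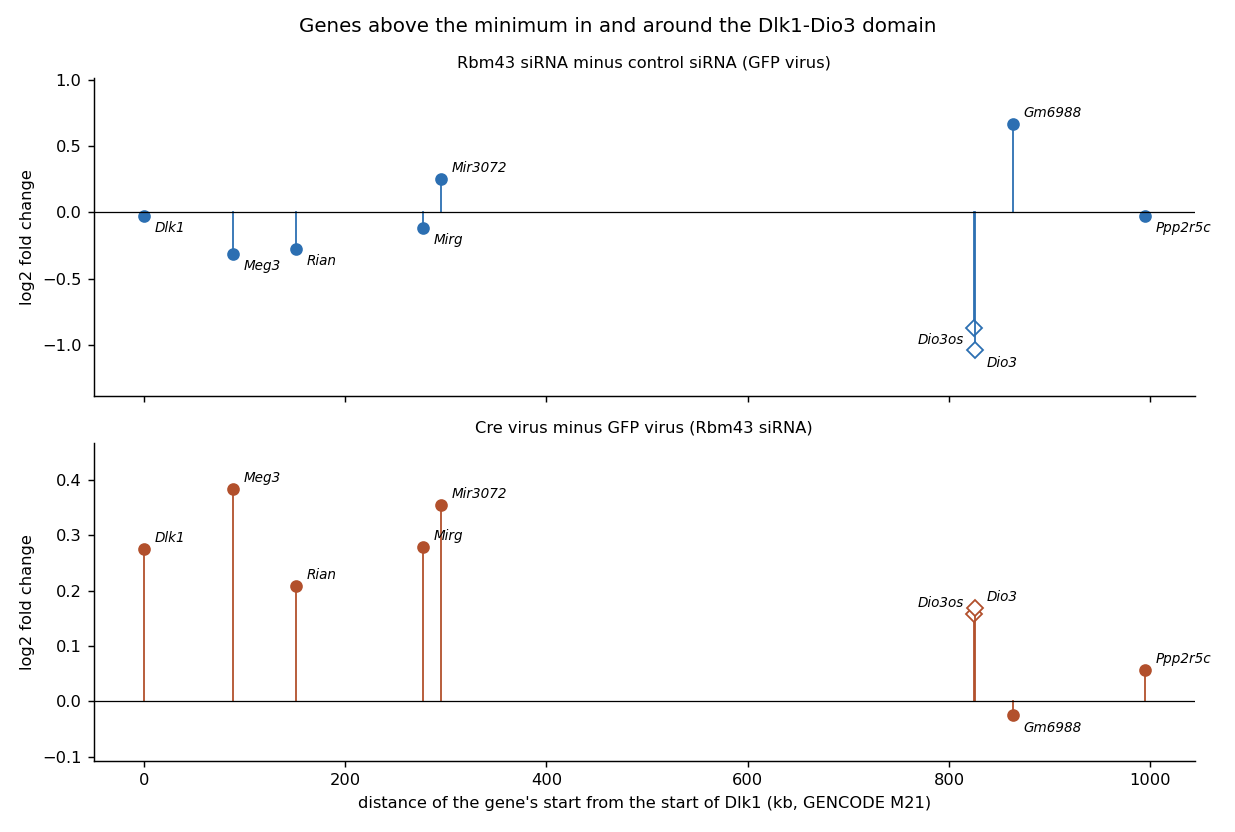
Log2 fold changes (y axis, scaled separately) of the 9 genes above the minimum against the distance of their starts from the start of Dlk1 in kilobases (x axis). With Rbm43 siRNA against control siRNA (top) Dio3 and Dio3os, open diamonds described without a test, lie at -1.04 and -0.87, and with Cre virus against GFP virus (bottom) Meg3 lies highest at 0.38.

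Mest encodes an enzyme-like protein of the endoplasmic reticulum, is paternally expressed and lies at chr6:30723547-30748465. It had 109.6 and 102 normalized counts in Cre/Rbm43 cells, 106 and 118 in GFP/Rbm43 cells, and 142 and 196 in GFP/control cells. All 4 Rbm43 siRNA libraries lay under both control siRNA libraries, which were far apart. Mest fell with Rbm43 siRNA against control siRNA, by 0.57 ± 0.15 on the log2 scale (95% interval -0.90 to -0.25, adjusted p = 0.0103) to 66.2% of the control mean. It also fell in Cre/Rbm43 against GFP/control cells (log2 fold change -0.65 ± 0.15, adjusted p = 0.0067), and had -0.08 ± 0.15 with Cre virus against GFP virus (adjusted p = 0.837). The first call was lost without control siRNA replicate 2 (log2 fold change -0.34, adjusted p = 0.166) or without GFP/Rbm43 replicate 1 (-0.50, adjusted p = 0.089). The second was lost without control siRNA replicate 2 (adjusted p = 0.103) or either Cre virus library (adjusted p = 0.0581 and 0.103).

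Mest shares 912 exon bases, 23.12% of its exons, with Copg2 on the opposite strand. Copg2, a coat protein subunit, had 1224 and 1238 normalized counts in GFP/Rbm43 cells against 1187 and 1144 in GFP/control cells (log2 fold change 0.08 ± 0.06, adjusted p = 0.376). The strand setting of the counting is not given in the sources used here, so reads of this overlap cannot be assigned with certainty. The microRNA Mir335, read from inside Mest, was at 0 in every library of these poly(A) data, as were Mir675 in H19 and Mir483 in Igf2.

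Igf2, the paternally expressed growth factor, and H19, the maternally expressed noncoding RNA 72.6 kb from it, are regulated by a shared control region. Igf2 lies at chr7:142650766-142666816 and H19 at chr7:142575529-142578143, both on the minus strand. Igf2 had 19.6 and 13.2 normalized counts in Cre/Rbm43 cells, 25.2 and 15.9 in GFP/Rbm43 cells, and 27.0 and 31.6 in GFP/control cells. The 4 Rbm43 siRNA libraries lay under both control siRNA libraries, with a wide spread inside each Rbm43 siRNA pair. The log2 fold change was -0.52 ± 0.33 with Rbm43 siRNA against control siRNA (adjusted p = 0.283) and -0.83 ± 0.33 in Cre/Rbm43 against GFP/control cells (95% interval -1.52 to -0.13 without adjustment, adjusted p = 0.106). Neither passed the threshold. The first was -0.21 without GFP/Rbm43 replicate 2 and -0.84 without GFP/Rbm43 replicate 1, and the second ran from -1.09 to -0.56 with a library left out. Igf2 rested on 15 to 26 reads per library. Igf2 also shares 62.83% of its exon bases with the same-strand gene model Gm49394, so counting could have divided its reads.

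H19 had 2213 and 2180.0 normalized counts in Cre/Rbm43 cells, 2384 and 2286 in GFP/Rbm43 cells, and 2334 and 1966 in GFP/control cells. The control siRNA pair spanned the Cre virus values. Its log2 fold change was 0.12 ± 0.07 with Rbm43 siRNA against control siRNA (adjusted p = 0.192), and it passed the threshold, at 0.25, without control siRNA replicate 1 (adjusted p = 0.000721) and was 0.00 without control siRNA replicate 2. Without control siRNA replicate 1 it also passed in Cre/Rbm43 against GFP/control cells (0.16, adjusted p = 0.0369), against 0.04 ± 0.07 with all libraries (adjusted p = 0.781). The H19 result thus rested on which control library was kept.

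Grb10, an adaptor that damps insulin and IGF1 receptor signalling and is maternally expressed outside neurons, had the highest normalized counts of the members. It lies at chr11:11930508-12038683 on the minus strand. It had 6109.8 and 5842 normalized counts in Cre/Rbm43 cells, 5687 and 5704 in GFP/Rbm43 cells, and 6325 and 6434 in GFP/control cells. The 3 groups did not overlap, and the GFP/Rbm43 pair was lowest. Grb10 fell with Rbm43 siRNA against control siRNA, to 89.3% of the control mean (log2 fold change -0.16 ± 0.05, 95% interval -0.26 to -0.07, adjusted p = 0.0144). The call was lost without GFP/Rbm43 replicate 1 (adjusted p = 0.0714) or replicate 2 (adjusted p = 0.066), with the estimate between -0.18 and -0.15 whichever library was left out. Cre virus against GFP virus gave 0.07 ± 0.05 (adjusted p = 0.44), and Cre/Rbm43 against GFP/control cells gave -0.09 ± 0.05 (adjusted p = 0.195).

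Around Igf2 and Grb10, all 20 listed genes of the insulin-like growth factor pathway passed the minimum. With Rbm43 siRNA against control siRNA 7 rose and 3 fell, with a list median of 0.026. Over all genes tested, 13.5% were called higher and 9.76% lower in this comparison. Igf1, the growth factor closest to Igf2, rose, with 9369.7 and 9609 normalized counts in GFP/Rbm43 cells against 5941 and 5779 in GFP/control cells (log2 fold change 0.70 ± 0.05, adjusted p = 3.84e-09). It stayed above control siRNA in Cre/Rbm43 cells, at 8629 and 8966 (log2 fold change 0.59 ± 0.05, adjusted p = 5.26e-08). The binding proteins Igfbp6 (-0.54 ± 0.06, adjusted p = 1.76e-06) and Igfbp2 (-0.54 ± 0.09, adjusted p = 0.000116) fell with Rbm43 siRNA, and Igfbp5 rose (0.26, adjusted p = 0.00245). Igf2r, the imprinted receptor that clears Igf2, had a log2 fold change of -0.01 ± 0.05 (adjusted p = 0.87).

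Over all genes, 2.62% were called higher and 5.88% lower with Cre virus against GFP virus. In this comparison 3 genes of the pathway rose and 0 fell (list median 0.099). They were Pappa (0.25 ± 0.05, adjusted p = 0.00351), a protease that frees the growth factors from binding proteins, Igfbp4 (0.22, adjusted p = 0.00795), its substrate, and the receptor Igf1r (0.18 ± 0.05, adjusted p = 0.0451). Each of the 3 calls was lost when either Cre virus library was left out, where the adjusted p reached 0.129, 0.206 and 0.355 for Pappa, Igfbp4 and Igf1r. Cre/Rbm43 against GFP/control cells gave 7 higher and 3 lower (list median 0.172), beside 8.47% higher and 6.28% lower over all genes. Pappa was at 0.42 ± 0.05 there (adjusted p = 9.78e-06). With a library left out, the number higher ranged from 2 to 5 with Rbm43 siRNA against control siRNA, from 0 to 4 with Cre virus against GFP virus and from 2 to 8 in the third comparison. The number lower ranged from 2 to 3, from 0 to 2 and from 1 to 3 in the same comparisons.

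Cdkn1c, the maternally expressed inhibitor of cyclin-dependent kinases known as p57, lies at chr7:143458339-143461050 and had 112 and 93.1 normalized counts in Cre/Rbm43 cells, 109 and 115 in GFP/Rbm43 cells, and 95.7 and 84.0 in GFP/control cells. The GFP virus pairs did not overlap, and the Cre virus pair overlapped with each of them. Its log2 fold change with Rbm43 siRNA against control siRNA was 0.31 ± 0.15, with a 95% interval of -0.01 to 0.64 (adjusted p = 0.157). The sign held in each fit with a library left out, between 0.22 and 0.41. Cdkn1c shares 30.65% of its exon bases with an antisense gene model, Gm44732, whose reads cannot be told apart without strand. Of 16 listed cell cycle inhibitors and their partners, 2 rose and 2 fell with Rbm43 siRNA (median log2 fold change -0.017). Over all genes, 13.5% were called higher and 9.76% lower with Rbm43 siRNA, 23.2% in either direction. Rb1, the retinoblastoma protein, rose by 0.46 ± 0.06 (adjusted p = 7.94e-06), and Cdkn1b, the relative p27 of Cdkn1c, fell by 0.23 ± 0.06 (adjusted p = 0.00795, and 0.0923 without GFP/Rbm43 replicate 2). With Cre virus against GFP virus 3 rose and 2 fell (median 0.024), beside 8.5% of all genes called. In the third comparison 4 rose and 2 fell (median 0.034), beside 14.7% of all genes called. Among the higher ones in the third comparison was Cdkn1a, known as p21 (0.32 ± 0.06, adjusted p = 0.000479). With a library left out, 1 to 3 rose and 0 to 2 fell with Rbm43 siRNA, 0 to 3 rose and 0 to 2 fell with Cre virus, and 1 to 5 rose and 0 to 2 fell in the third comparison.

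Plagl1 and Peg3, paternally expressed zinc finger proteins, did not pass the threshold in any of the 3 comparisons with all libraries. Plagl1 lies at chr10:13060504-13131694 and Peg3 at chr7:6703892-6730431. Plagl1 had 204 and 203 normalized counts in Cre/Rbm43 cells, 211 and 285 in GFP/Rbm43 cells, and 209 and 253 in GFP/control cells. The Cre virus pair lay just under the others, with a log2 fold change against GFP virus of -0.27 ± 0.13 (95% interval -0.54 to 0.01, adjusted p = 0.256) that passed the threshold without GFP/Rbm43 replicate 1 (-0.48, adjusted p = 0.0485) and was -0.05 without GFP/Rbm43 replicate 2 (adjusted p = 0.919). Peg3 had 553 and 548 in Cre/Rbm43 cells, 484 and 525 in GFP/Rbm43 cells, and 495 and 482 in GFP/control cells. The Cre virus pair was highest, with 0.13 ± 0.08 against GFP virus (adjusted p = 0.373) and 0.17 ± 0.08 against GFP/control (adjusted p = 0.147).

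Counted together, the 8 members other than Nnat and Dio3 gave 0 higher and 2 lower, Mest and Grb10, with Rbm43 siRNA against control siRNA, where the share called over all genes was 23.2%. Their median log2 fold change was 0.01 against -0.0056 over all genes. With Cre virus against GFP virus limma called 0 of the 8, with 0 at an unadjusted p under 0.05 and 0 by edgeR or DESeq2, beside 8.5% of all genes (median -0.082 against 0.0022). Cre/Rbm43 against GFP/control cells gave 0 higher and 1 lower, Mest, beside 14.7% of all genes (median -0.029 against -0.0018). Over all genes, 9.76% were called lower with Rbm43 siRNA and 6.28% in the third comparison. The 2 and 1 members called lower lay above those shares, a difference that was not tested. In the third comparison Igf2, Mest and Peg3 had an unadjusted limma p under 0.05. In either direction, the numbers of 8 called were near or under the share over all genes. That share itself moved with the libraries kept, since leaving out 1 gave 2115 to 3633, 312 to 2068 and 770 to 2654 genes called in the 3 comparisons, against 3301, 1208 and 2096 with all libraries.

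**Figure D4:**
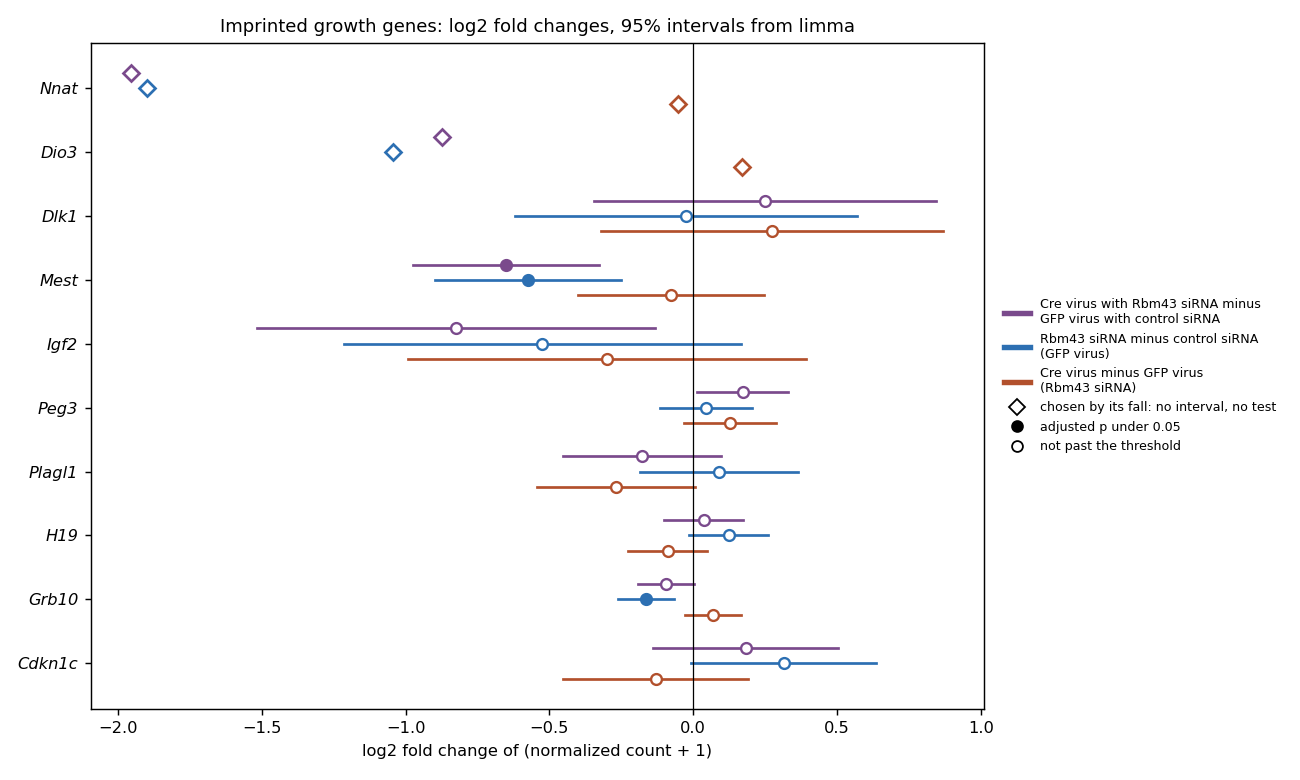
Log2 fold changes (x axis) of the 10 imprinted growth genes (rows) in the 3 comparisons (colours), with 95% intervals from limma for 8 genes and open diamonds without an interval for Nnat and Dio3. Filled points, at an adjusted p under 0.05, are Mest in both comparisons against GFP/control and Grb10 with Rbm43 siRNA against control siRNA.

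Among 62 further imprinted genes, 45 passed the minimum. With Rbm43 siRNA against control siRNA 0 rose and 6 fell, Atp10a, Rian, Meg3, Osbpl5, Sgce and H13, with a list median of -0.029. Over all genes tested, 9.76% were called lower and 23.2% in either direction in this comparison, and 6 of 45 lay near the first share and under the second. With a library left out, 0 to 4 rose and 4 to 8 fell, and H13 and Sgce lost their calls in 3 and 1 of the 6 fits (adjusted p up to 0.326 and 0.218). Atp10a, a lipid flippase, had 401 and 385 normalized counts in GFP/Rbm43 cells against 589 and 730.3 in GFP/control cells (log2 fold change -0.74 ± 0.09, adjusted p = 6.9e-06). Osbpl5, a lipid transfer protein, had 845 and 728 against 1029 and 1025 (-0.39 ± 0.07, adjusted p = 0.000466). With Cre virus against GFP virus 2 rose, Meg3 and Rian, and 0 fell (median 0.009), beside 2.62% higher and 5.88% lower over all genes. In the third comparison 0 rose and 7 fell (median -0.040), with Atp10a at -0.73 ± 0.09 (adjusted p = 1.82e-05). DESeq2 called 2 lower there, and fewer than 7 fell in some fits with a library left out. Of the 7, Atp10a alone kept its call in every such fit, and Osbpl5, Slc22a2, Trappc9, Sgce, Slc22a3 and Pon2 did not. Over all genes, 8.47% were called higher and 6.28% lower in the third comparison, 14.7% in either direction.

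Of 20 listed genes that maintain or erase imprints, all tested, 2 rose and 2 fell with Rbm43 siRNA against control siRNA (median -0.087). Over all genes, 13.5% were called higher and 9.76% lower in this comparison. Tet2, an enzyme that oxidises methylated cytosine, rose, with 738 and 776 against 512 and 500.3 normalized counts (log2 fold change 0.58 ± 0.07, adjusted p = 9.55e-06). Trim28, which holds imprints in the embryo, fell (-0.18 ± 0.06, adjusted p = 0.0267), a call lost without GFP/Rbm43 replicate 2 or either Cre virus library (adjusted p up to 0.225). The maintenance methyltransferase Dnmt1 had -0.16 ± 0.07 (adjusted p = 0.102) and the imprint-binding factor Zfp57 had -0.18 ± 0.14 (adjusted p = 0.391). With Cre virus against GFP virus limma, edgeR and DESeq2 called 0 of the 20 (median 0.026), with 2 at an unadjusted p under 0.05. The third comparison gave 2 higher and 1 lower (median 0.023). Over all genes, limma called 8.5% with Cre virus against GFP virus and 14.7% in the third comparison. With a library left out, 1 to 3 rose and 0 to 2 fell with Rbm43 siRNA, and 1 to 4 rose and 0 to 2 fell in the third comparison, where DESeq2 called 1 higher and 0 lower. Notch pathway genes were listed because Dlk1 resembles Notch ligands, and 10 were tested. Beside 13.5% higher and 9.76% lower over all genes, 0 of them rose and 2 fell with Rbm43 siRNA against control siRNA (median -0.133). They were Rbpj (-0.26 ± 0.06, adjusted p = 0.00336) and Adam17 (-0.16, adjusted p = 0.0464, lost in 5 of the 6 fits with a library left out). Limma called 0 of these 10 in the comparison of Cre with GFP virus (median 0.079), and 0 in the third comparison (median -0.078), with 1 at an unadjusted p under 0.05 in each and 0 by edgeR or DESeq2.

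The libraries held 15775398 to 21961724 reads in genes, of which 8172 to 10548 fell on the 10 members, and 1 read was worth 0.878 to 1.217 normalized counts. The siRNA target Rbm43 averaged 45.2 ± 2.08 in GFP/Rbm43 cells and 205 ± 27.4 in GFP/control cells (SD, n = 2 each; log2 fold change -2.15 ± 0.21, adjusted p = 3.59e-07). Ppargc1a had 463 and 469 normalized counts with Cre virus and 399 and 423 with GFP virus under Rbm43 siRNA, a whole-gene count that does not check the excision. Adipocyte markers summed to 211980 and 213854 normalized counts in Cre/Rbm43 cells, 254271 and 255383 in GFP/Rbm43 cells, and 191835 and 176385 in GFP/control cells. With Rbm43 siRNA 6 of 8 rose, with Cre virus 7 of 8 fell, and in the third comparison 3 rose and 2 fell. None of these 8 was at 0. Over all genes, 13.5% were called higher and 9.76% lower with Rbm43 siRNA, and 2.62% and 5.88% with Cre virus. In the third comparison 8.47% were called higher and 6.28% lower. Preadipocyte and fibroblast markers summed to between 306418 and 313627, between 287353 and 307588, and between 331947 and 341217 in the same order of groups, with 3 of 8 tested markers lower with Rbm43 siRNA, and none of the 9 at 0 throughout. Neuron markers, given beside Nnat, summed to 787 and 862, 764 and 697, and 946 and 845, nearly all of it Tubb3. Of the 5, Rbfox3 was at 0 throughout, Snap25 and Syt1 had at most 3 reads in any library, and 1 of the 2 tested, Tubb3, was lower with Rbm43 siRNA (log2 fold change -0.29 ± 0.08, adjusted p = 0.00812). With Rbm43 siRNA against control siRNA, 2 of 6 macrophage markers were lower, while 3 of 5 mural markers were higher. Endothelial markers summed to 299.5 and 326.7, 251.5 and 253.7, and 232.0 and 220.3 in the same order of groups. Of the 5 myoblast markers 3 were at 0 throughout and 0 passed the minimum. The part of these marker shifts in the levels of the imprinted genes was not tested.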

How the data were processed

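Poly(A) RNA of 6 libraries was sequenced as paired ends from a stranded mRNA kit, per the labels' protocols. The deposited table holds a signal per gene, read counts divided by a size factor per library. Per the submitters' processing notes, the mm10 build, DESeq2 2.11.40.7, fastp 0.23.2 and STAR 2.7.8 were used, in roles and an order not stated. Which counter, annotation and strand setting were used is not given in the sources used here. Each deposited value was a whole multiple of the worth of 1 read within 0.01 read (100% of values). Genes at 10 or more in at least 2 libraries (14211 of 35976 rows) were tested with limma 3.58.1 in R 4.3.3, with a trend, on log2(normalized count + 1), with all 6 libraries in 1 fit (3 residual degrees of freedom). Benjamini-Hochberg adjustment ran over all of them and genes were called under 0.05. Intervals of fold changes are 95% and unadjusted, and errors beside them are SE.

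Groups and replicate numbers came from the sample titles. The 3 comparisons share libraries pairwise. The rule, the members, the 8 companion gene lists (other imprinted genes, domain neighbours, insulin-like growth factor, thyroid hormone and Notch pathways, cell cycle, imprint maintenance, calcium pumps) and the cell type markers were chosen with earlier results of these data known. One of the marker lists is not reported here. Genes were named as follows: all 10 members, Rbm43 and Ppargc1a, up to 4 genes of smallest p per list and comparison, domain neighbours, and the 5 nearest profiles of Nnat and of Dio3; Sgce, H13, Tubb3, Dio1, Pln, Sln, Ppp2r5c and Gm6988 were added for their roles, places or calls after their values were seen. Positions came from GENCODE M21 and promoter sequences from RefSeq (GRCm38.p6), matched by symbol; 8 of the 10 members had a window. The fits were tested on simulated counts. Each library was left out in turn. Other alternatives were DESeq2 1.42.0 and edgeR 4.0.16 run on recovered reads, pseudocounts of 0.5 and 5, upper-quartile and total scaling, a minimum of 50 or none, a replicate block, no trend, and fits limited to the groups compared.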

Additional observations from a re-analysis of the deposited data

How the results depend on the processing

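The number of the 8 members past the threshold with Rbm43 siRNA against control siRNA was 2, and it was 1 with no filter, 0 with no trend and between 0 and 3 with a library left out. With Cre virus against GFP virus it was 0, and between 0 and 1 with a library left out. In Cre/Rbm43 against GFP/control cells it was 1, and it was 0 with no filter or no trend and between 0 and 2 with a library left out. Without the filter 22944 genes were adjusted for; the other causes were not tested. Over the log2 fold changes of single members, 476 alternatives gave the same result, 12 lost the call, 3 gained it, 3 moved and 10 changed sign, all 10 with a library left out. For the 8 tested members, the same result meant the same direction and call. For Nnat and Dio3, which have no call, it meant the same direction and a shift under the replicate spread. The 3 that moved were larger shifts of these genes. With a library left out, Rbm43 siRNA against control siRNA ranged from -0.45 to 0.40 for Dlk1, from -0.13 to 0.31 for Plagl1 and from -0.015 to 0.104 for Peg3. Cre virus against GFP virus ranged from -0.62 to 0.019 for Igf2, from -0.185 to 0.077 for Nnat and from -0.033 to 0.37 for Dio3. Cre/Rbm43 against GFP/control cells ranged from -0.18 to 0.68 for Dlk1, from -0.088 to 0.16 for H19 and from -1.07 to -0.67 for Dio3. Nnat stayed between -2.08 and -1.72, and Dio3 between -1.12 and -0.97, with Rbm43 siRNA against control siRNA under every alternative run. Both were chosen by this fall in these same libraries, so their ranges describe it and do not test it.

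Over all genes the 3 comparisons called 3301, 1208 and 2096 genes, against 1304, 0 and 433 with no trend, 2316, 609 and 1251 with no filter, 3263, 1336 and 2111 with edgeR and 2045, 826 and 1229 with DESeq2. Rbm43 siRNA against control siRNA called 2115 without GFP/Rbm43 replicate 2. Cre virus against GFP virus called 312 and 329 without Cre virus replicate 1 and 2, 468 without GFP/Rbm43 replicate 2, and 2060 and 2068 without control siRNA replicate 1 and 2. The third comparison called 770 and 827 without Cre virus replicate 1 and 2. A fit of only the 2 groups compared called 2083 with Cre virus against GFP virus. Upper-quartile scaling gave 1603 higher and 1861 lower with Rbm43 siRNA against control siRNA, and total scaling 1678 and 1679, against 1914 and 1387. Replicate numbers did not pair the libraries (correlations of their deviations 0.0187, -0.042 and -0.0373 over 14211 genes), and with a replicate block 2, 0 and 1 of the 8 members passed and 3412, 1304 and 2214 genes were called.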
